A study of Mus musculus with 107 samples.

Results

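The glutathione S-transferase genes described here are the 10 genes Gstm1, Gstm2, Gstm5, Gsta3, Gsta4, Gstp1, Gsto1, Gstt1, Gstk1 and Mgst1, measured in mouse ear skin 24 h after a topical dose of sulfur mustard, bis-(2-chloroethyl) sulfide. They were chosen by gene symbol alone, as every probe set annotated to one of these symbols on either of 2 expression arrays. Array A carried 16 such probe sets among 22690, and array B carried 0 among 22575, so all values of these genes come from array A. Of the 16 probe sets, 15 passed the filter on low signals; the 1 that did not is a second probe set of Mgst1. They are 10 of the 18193 genes that probe sets with a single symbol name on the pair of arrays. The rule itself uses no measured value.

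The right ears of mustard animals received 0.08 mg (0.5 µmol) of mustard in 5 µL of methylene chloride, and the left ears received methylene chloride alone. Before the mustard, 3 further groups received a drug in ethanol, 15 min earlier: 6.25 mg of dimercaprol, a dithiol metal chelator, 1.34 mg of indomethacin, a cyclooxygenase inhibitor, or octylhomovanillamide, a capsaicin analogue whose dose is labelled 0.6 mg and given as 0.585 mg in the protocol. Array A held 6 ears with dimercaprol before mustard, 6 with indomethacin before mustard, 5 with octylhomovanillamide before mustard, 5 with mustard alone and 21 methylene chloride ears. Separate animals without mustard gave 4 dimercaprol, 4 indomethacin, 5 octylhomovanillamide and 3 ethanol ears, and 5 untreated ears of 3 naive animals. The 3 ethanol ears are the left ears of drug-treated animals, 1 per drug. Ears with mustard alone had no ethanol, so that a drug and its ethanol cannot be told apart. The labels give no strain, sex or age. Of the 21 methylene chloride ears, 17 are the other ears of measured mustard ears rather than ears of unexposed mice. For the rest, of animals 2, 7, 26 and 38, no right ear was measured and no label gives its treatment. All 21 are grouped with the mustard animals here.

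Glutathione S-transferases join the thiol of glutathione to reactive electrophiles, which are then exported and processed to mercapturates. Sulfur mustard is a bifunctional alkylating agent, and conjugation with glutathione is one known route of its removal. The soluble enzymes are grouped in classes by sequence, here mu (Gstm1, Gstm2, Gstm5), alpha (Gsta3, Gsta4), pi (Gstp1), theta (Gstt1) and omega (Gsto1), beside the mitochondrial and peroxisomal kappa enzyme (Gstk1) and a membrane-bound microsomal one (Mgst1). Several genes of the alpha, mu and pi classes are known targets of the transcription factor Nrf2, encoded by Nfe2l2, which binds antioxidant response elements.

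The sequences around the start sites of 5 members are shown because these include the members that fell most (Gsta3, Gstm1), the 1 that rose (Gsto1) and every member with an antioxidant response element core. They were taken from RefSeq (GRCm38.p6), run 5′ to 3′ from 250 bases before to 50 bases after the annotated start, and have that core, TGACNNNGC on either strand, in capitals. The RefSeq table held 11 promoters of 9 of the 10 genes; Gsta4 was not matched. Gstm1 has 2 overlapping promoters and Mgst1 has 2 separate ones, of which 1 each is shown.
Gsta3 (chr1:21240335-21240634, plus strand): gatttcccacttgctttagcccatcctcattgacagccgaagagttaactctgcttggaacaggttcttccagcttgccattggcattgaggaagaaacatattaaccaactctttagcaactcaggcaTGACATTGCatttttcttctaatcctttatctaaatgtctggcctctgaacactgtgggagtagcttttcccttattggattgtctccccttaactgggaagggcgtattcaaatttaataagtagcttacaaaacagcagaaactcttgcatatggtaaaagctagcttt
Gstm5 (chr3:107895604-107895903, plus strand): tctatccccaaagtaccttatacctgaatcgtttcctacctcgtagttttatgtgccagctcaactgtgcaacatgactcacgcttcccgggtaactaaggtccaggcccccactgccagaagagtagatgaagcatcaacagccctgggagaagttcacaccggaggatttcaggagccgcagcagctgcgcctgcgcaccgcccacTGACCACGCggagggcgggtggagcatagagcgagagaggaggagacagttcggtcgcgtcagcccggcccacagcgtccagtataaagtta
Mgst1 (chr6:138140277-138140576, plus strand): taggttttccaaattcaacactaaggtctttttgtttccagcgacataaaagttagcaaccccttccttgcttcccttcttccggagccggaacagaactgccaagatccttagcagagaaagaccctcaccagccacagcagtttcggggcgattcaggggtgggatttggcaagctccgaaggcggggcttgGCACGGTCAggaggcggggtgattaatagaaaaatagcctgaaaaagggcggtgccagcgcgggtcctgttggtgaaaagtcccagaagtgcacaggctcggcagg
Gstm1 (chr3:108017769-108018068, minus strand): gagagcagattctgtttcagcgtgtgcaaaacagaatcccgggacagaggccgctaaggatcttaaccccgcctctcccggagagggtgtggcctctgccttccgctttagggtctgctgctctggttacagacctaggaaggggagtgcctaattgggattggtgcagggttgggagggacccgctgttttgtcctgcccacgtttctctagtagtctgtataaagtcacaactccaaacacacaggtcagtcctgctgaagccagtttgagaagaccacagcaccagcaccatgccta
Gsto1 (chr19:47854723-47855022, plus strand): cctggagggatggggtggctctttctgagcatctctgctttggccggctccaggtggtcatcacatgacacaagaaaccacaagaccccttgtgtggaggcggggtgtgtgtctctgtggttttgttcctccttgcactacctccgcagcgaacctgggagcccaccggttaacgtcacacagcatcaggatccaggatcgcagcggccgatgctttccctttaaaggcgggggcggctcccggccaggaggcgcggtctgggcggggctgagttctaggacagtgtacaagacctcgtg

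The core was present in 12.4% of all 32851 mouse promoters of this length and in 3 of the 11 member promoters. These 3 belong to 3 of the 9 matched genes. In Gsta3 it began 121 bases before the start, in Gstm5 42 bases before it and in Mgst1 56 bases before it, on the reverse strand. Neither promoter of Gstm1, nor the promoter of Mgst1 that is not shown, nor that of Gsto1 held these letters. The AP-1 motif TGANTCA, found in 7.8% of all promoters, occurred in Gstm5 at 176 and in Gstp1 at 74 bases before the start. The xenobiotic response element core GCGTG, found in 32.4%, occurred in Gstm1, Gstp1 and Gstm5, and 1 of its matches in Gstm5, at 38 bases before the start, lies inside the antioxidant response element core. The Gstm1, Gstm2 and Gstm5 genes all lie on chromosome 3. The match of letters is a description of these windows and shows no binding.

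Signals below are MAS5 signals scaled to a trimmed mean of 500 per array, and a gene is represented by its probe set with the highest mean. Fold changes are differences of log2(scaled signal + 16), which understates the change of dim genes, with the limma standard error (SE). A gene is called where limma's p, adjusted by Benjamini-Hochberg over all 15953 probe sets kept, was under 0.05. Levels are compared between ears of 1 probe set and never between genes. Before scaling, the trimmed mean was 66.3 to 137 in mustard ears, against 111 to 221 in methylene chloride ears, so mustard arrays were dimmer. The log2 ratio of the 3′ to the 5′ Gapdh probe set, a sign of RNA quality, was -0.05 to 0.78 in mustard ears, against -0.25 to 0.24 in methylene chloride ears.

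Sulfur mustard alone was followed by lower signals of mu class genes, of Gsta3 and of Gstt1, and by a higher signal of Gsto1. Against methylene chloride ears, 5 of the 10 genes were lower and 1 was higher, while 42.8% of all probe sets kept were called, 23.4% lower and 19.3% higher. The share of members called is thus not far from that of all probe sets. The median log2 fold change of the 10 genes was -0.35, against -0.00 for all probe sets. The remaining 4 genes, Gsta4, Gstp1, Gstk1 and Mgst1, were not called.

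**Figure D1:**
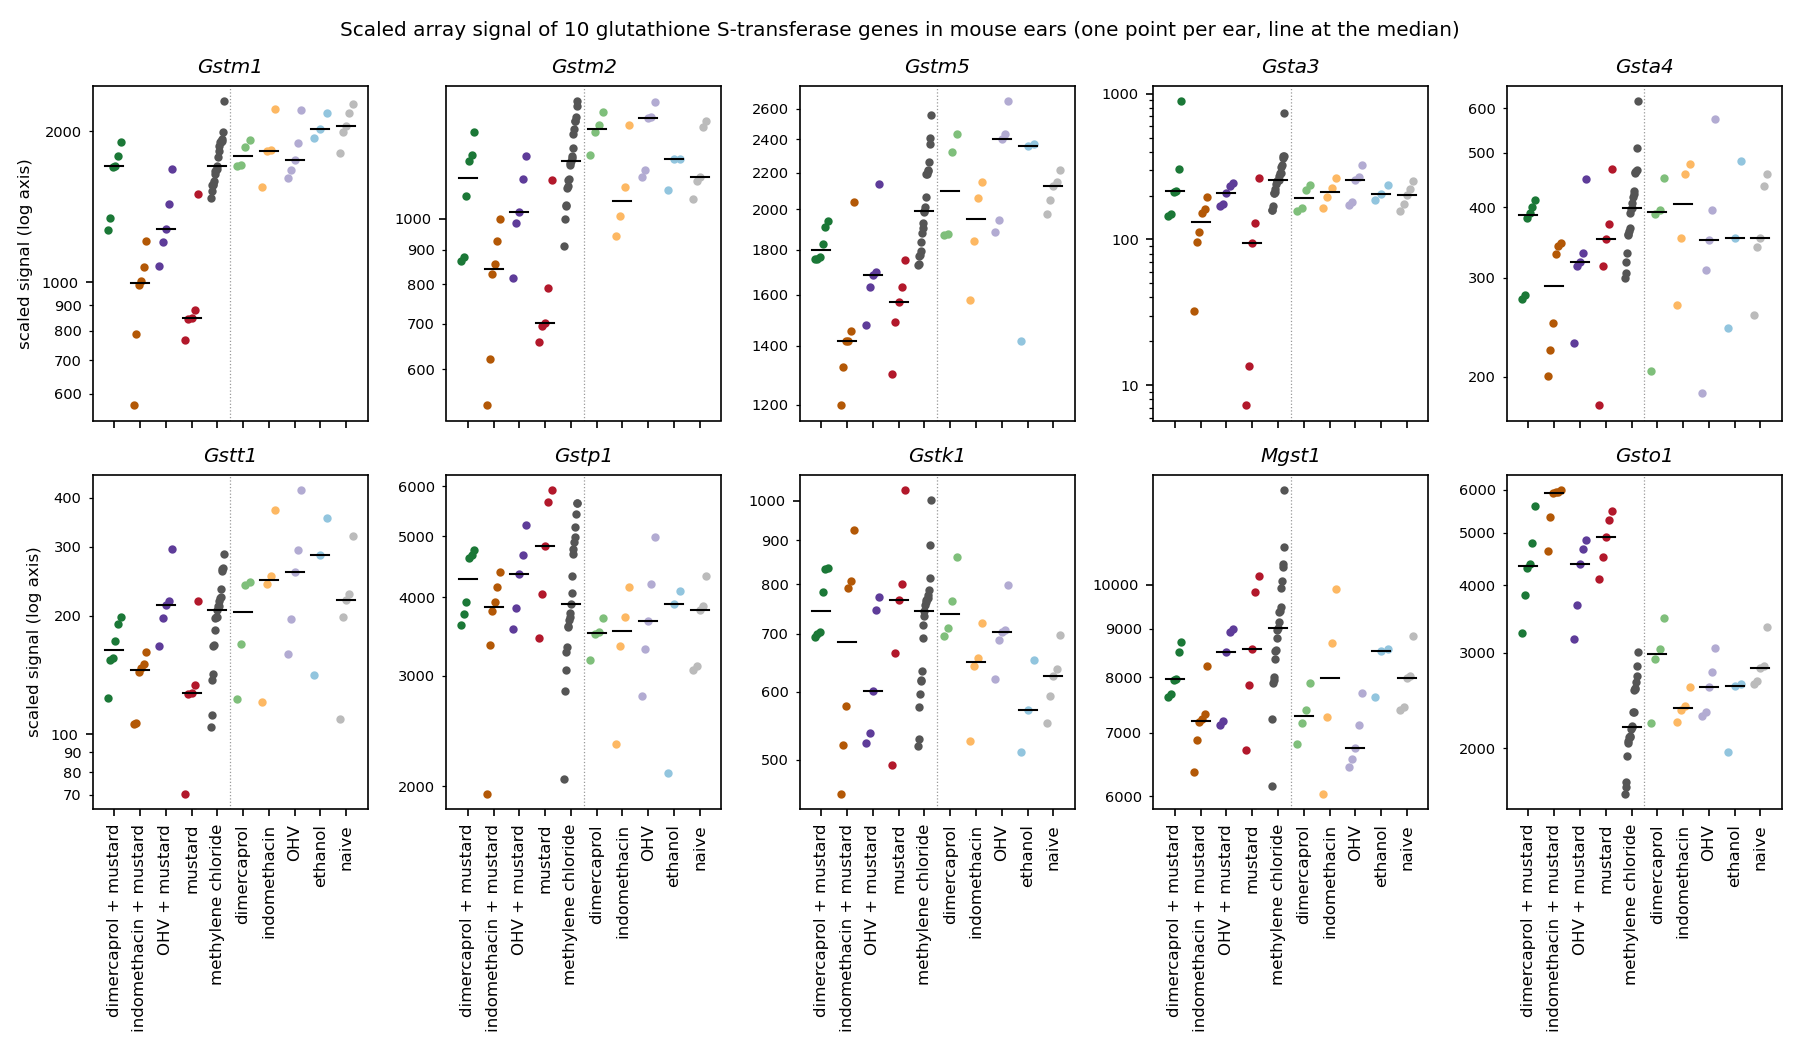
Scaled signal of each gene in every array A ear (y axis, logarithmic, arbitrary units, a separate scale per gene). Groups run along the x axis with mustard animals left of the dotted line (OHV, octylhomovanillamide), points are ears and bars are medians. Gsto1 lies above every methylene chloride ear in all 4 mustard groups, and Gstm1 has its lowest medians in the mustard and indomethacin before mustard ears.

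The mu class enzymes conjugate a broad range of aromatic and epoxide electrophiles. Gstm1 had signals of 767.6, 879.1, 850.5, 1502 and 845.5 in the ears of mustard animals 1, 3, 5, 36 and 37, against 1474 to 2295 (median 1704) in the 21 methylene chloride ears. In 4 of the 5 mustard ears Gstm1 was below every methylene chloride ear, and the ear of animal 36 lay at their lower edge. It averaged 969 ± 301 in mustard ears (SD, n = 5) and 1760 ± 199 in methylene chloride ears (SD, n = 21), a log2 fold change of -0.89 ± 0.12 (SE, limma adjusted p = 1.35e-07). The other 3 probe sets of Gstm1 were lower too, by -0.49 ± 0.15, -0.47 ± 0.13 and -0.74 ± 0.12 on the log2 scale, each called. The representative probe set carries the suffix for possible cross-hybridisation with similar transcripts, so that its signal may include near-identical mu class genes.

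Gstm2 had 701, 658, 696, 1139 and 790 in mustard ears 1, 3, 5, 36 and 37, against 912 to 1488 (median 1214) in methylene chloride ears. Again ear 36 alone reached the range of methylene chloride ears, and the log2 fold change was -0.63 ± 0.12 (limma adjusted p = 3.98e-05). Gstm5 changed less. It had 1301, 1488, 1571, 1752 and 1631 in the mustard ears in the same order, against 1728 to 2558 (median 1992), so 4 of 5 mustard ears were below all methylene chloride ears, with a log2 fold change of -0.39 ± 0.09 (limma adjusted p = 0.000408).

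Markers of wound keratinocytes moved in the same ears. All 5 genes of that list (Krt6a, Krt6b, Krt16, Sprr1b, Sprr2d) rose, and their summed signal was 23183 to 98904 in mustard ears, against 2515 to 9205 in methylene chloride ears. The lowest of these mustard sums is well above the highest control sum. Of 5 measured sebaceous gland markers, 4 fell and Scd1 rose, with sums of 24275 to 38486 in mustard ears and 27464 to 43026 in methylene chloride ears, while 2 of 3 measured neutrophil markers rose (519 to 2384, against 245 to 570). Of 6 basal keratinocyte markers Krt14 and Itgb4 rose and Krt15 and Col17a1 fell, with sums of 39319 to 62101 in mustard ears and 46350 to 70799 in methylene chloride ears. Of 4 suprabasal markers Krt10 rose and Flg fell, of 3 adipocyte markers Fabp4 fell (sums 1342 to 4916, against 1509 to 8113), and of 7 macrophage markers Cd68 rose (2343 to 4966, against 2840 to 6434). The fibroblast, endothelial, cartilage and muscle lists had 0 genes called of 6, 5, 4 and 7. The part of cell composition in the changes of the transferases was not tested, and in whole skin biopsies fewer cells of a type and less RNA per cell cannot be told apart.

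In the alpha class, Gsta3, an enzyme that in mice detoxifies aflatoxin epoxide, had the largest fall of the 10 genes and also the most uneven one. Its signals were 130, 7.29, 94.6, 265 and 13.6 in mustard ears 1, 3, 5, 36 and 37, against 158 to 736 (median 255) in methylene chloride ears. Mustard ear 36 was above the methylene chloride median and the other 4 were below every methylene chloride ear. The log2 fold change was -1.83 ± 0.35 (limma adjusted p = 4.99e-05). Since 2 of the values lie under the added 16, the size depends on it: with 64 added, Gsta3 changed by -1.23. The second probe set of Gsta3 averaged 97.0 ± 45.8 in mustard ears (SD, n = 5) and 125 ± 32.5 in methylene chloride ears (SD, n = 21), a log2 fold change of -0.38 ± 0.17 that was not called (limma adjusted p = 0.0763). Averaging both probe sets gave -1.10 for Gsta3, which was still called.

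Gsta4, which clears the lipid peroxidation product 4-hydroxynonenal, had 351, 315, 374, 467 and 178 in mustard ears 1, 3, 5, 36 and 37, against 299 to 617 (median 398) in methylene chloride ears. These groups overlapped, and the log2 fold change of -0.30 ± 0.15 missed the threshold (limma adjusted p = 0.0951). Single ears moved it: Gsta4 was -0.10 without mustard ear 37 and -0.43, past the threshold, without ear 36 (limma adjusted p = 0.0212). With each animal as a block over the complete left and right pairs, Gsta4 was lower by -0.54 (limma adjusted p = 0.0254).

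Gstt1, the theta enzyme known to conjugate small halogenated compounds including methylene chloride itself, had 70.3, 127, 126, 218 and 133 in mustard ears 1, 3, 5, 36 and 37, against 104 to 288 (median 207) in methylene chloride ears. The signal was below the methylene chloride mean in 4 of 5 mustard ears, and only that of ear 1 was below the lowest methylene chloride ear. Its log2 fold change was -0.55 ± 0.17 (limma adjusted p = 0.00696). The call was lost when mustard ear 1 was left out (-0.37, limma adjusted p = 0.0858), with the animal as a block (Gstt1 -0.40, limma adjusted p = 0.112) and after adjustment for the Gapdh ratio (-0.40, limma adjusted p = 0.146).

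The pi, kappa and microsomal genes showed no call after mustard alone. Gstp1, whose enzyme acts on a wide range of electrophiles and whose probe set may also read the near-identical Gstp2, had 4042, 5674, 5921, 4821 and 3440 in mustard ears 1, 3, 5, 36 and 37, against 2057 to 5646 (median 3905) in methylene chloride ears, a log2 fold change of 0.23 (95% interval -0.10 to 0.55). For Gstk1 the range was 493 to 1029 in mustard ears, against 519 to 1001 in methylene chloride ears, and the log2 fold change was 0.04 (95% interval -0.22 to 0.31). Mgst1 ranged over 6707 to 10216 in mustard ears, against 6153 to 12573 in methylene chloride ears, with -0.08 (95% interval -0.27 to 0.12), though quantile normalization called Mgst1 lower (-0.26, limma adjusted p = 0.0323). All mustard ears of Mgst1 lay within the range of the methylene chloride ears. For Gstp1, mustard ears 3 and 5 lay above that range. For Gstk1, mustard ear 1 lay below it and mustard ear 36 above it.

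Gsto1 was the 1 member that rose. Its omega class enzyme has little activity towards typical transferase substrates and reduces dehydroascorbate and mixed disulfides. Gsto1 had 5478, 4903, 5264, 4111 and 4510 in mustard ears 1, 3, 5, 36 and 37, against 1647 to 3008 (median 2190) in methylene chloride ears. The groups did not overlap, and the means were 4853 ± 554 in mustard ears (SD, n = 5) and 2266 ± 375 in methylene chloride ears (SD, n = 21), a 2.15-fold difference (log2 1.10 ± 0.11, limma adjusted p = 2.83e-10). The second probe set of Gsto1, which may cross-hybridise, rose by 0.83 ± 0.27 (limma adjusted p = 0.0101).

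**Figure D2:**
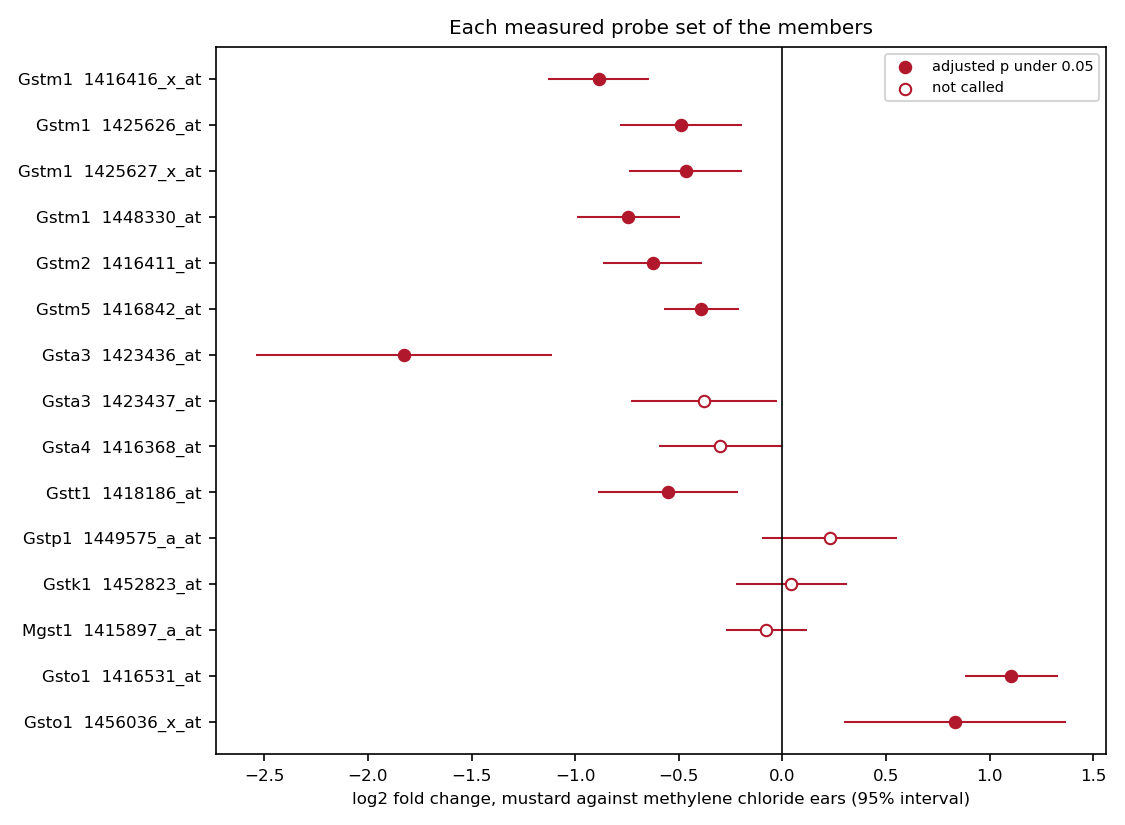
Log2 fold change of mustard against methylene chloride ears with its 95% interval (x axis) for each of the 15 probe sets kept (y axis, gene and probe set), filled where the limma adjusted p was under 0.05. All 4 probe sets of Gstm1 lie left of 0, both of Gsto1 lie right of it, and the probe sets of Gsta3 differ in size.

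Gsto1 and the mu genes also differed between the ears of single animals. Both ears of 17 mustard animals were on array A, and the mustard ear had the higher Gsto1 signal in 17 of them, by 0.08 to 1.76 on the log2 scale (median 1.09). For Gstm1 and Gstm2 the mustard ear was lower in 16 of 17 animals each, for Gstm5 and Gsta3 in 15, and for Gsta4 and Mgst1 in 14. Gstp1 was higher in 9 animals and lower in 8. These counts pool the animals with mustard alone and those with a drug before it. After mustard alone Mgst1 was lower in 2 of 4 animals, Gsta3 and Gsta4 in 3, and Gstm1, Gstm2 and Gstm5 in 4. After mustard alone Gstm1 differed by a mean of -0.86 over 4 animals (-1.35 to -0.13), while after dimercaprol and mustard it differed by -0.22 over 4 animals (-0.34 to -0.14).

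**Figure D3:**
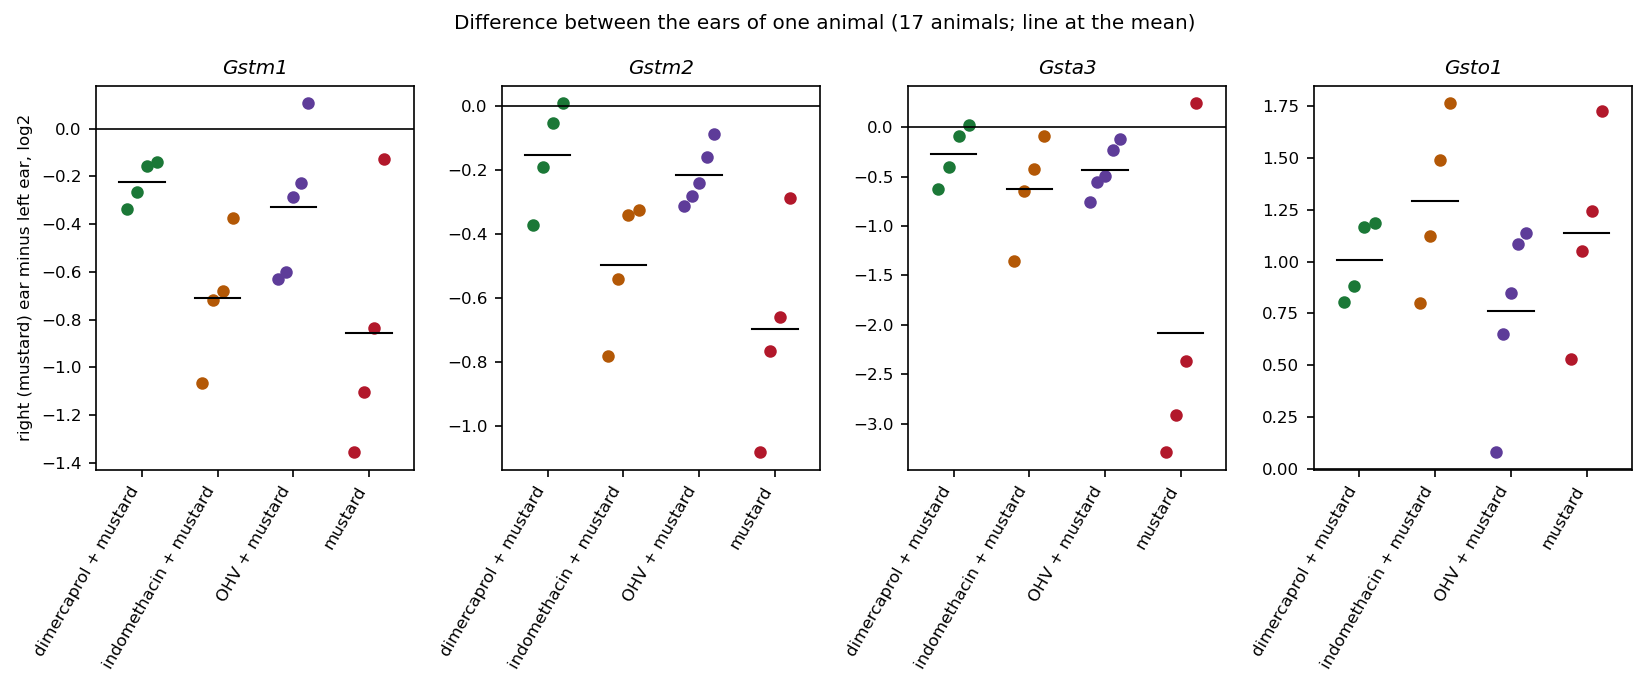
Right (mustard) minus left (methylene chloride) ear of each animal in log2 units (y axis, a separate scale per gene) for 4 genes by treatment of the right ear (x axis; OHV, octylhomovanillamide). Points are the 17 animals and bars are means. All Gsto1 points lie above 0, and the dimercaprol before mustard points of Gstm1 lie between -0.34 and -0.14.

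With dimercaprol before mustard, Gstm1, Gstm2 and Gsta3 were higher than after mustard alone, while Gsto1 was not called. Of the 10 genes 3 were higher and 0 lower than in mustard ears, where 26.8% of all probe sets were called and 15.6% were higher, so the members' count lies above that share by few genes. Gstm1 had 1787, 1345, 1906, 1705, 1697 and 1272 in ears 6, 8, 9, 10, 11 and 12 with dimercaprol before mustard, against 768 to 1502 (median 850.5) in mustard ears. Apart from mustard ear 36, all mustard ears were below all dimercaprol-pretreated ears, and the log2 fold change was 0.76 ± 0.15 (limma adjusted p = 0.000188). The other 3 probe sets of Gstm1 were higher on average too, by less on the log2 scale. Their means were 248, 490 and 1172 with dimercaprol, against 192, 359 and 811 in mustard ears. Of the 15 member probe sets kept, 5 were called higher, among them the 3 representative ones. Gstm2 ranged from 866 to 1342 in ears with dimercaprol before mustard, against 658 to 1139 in mustard ears (log2 0.47 ± 0.15, limma adjusted p = 0.0131). The call of Gstm2 was lost with the Gapdh ratio in the model (0.41, limma adjusted p = 0.102) and without mustard ears 5 and 37 (0.42, limma adjusted p = 0.113).

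Gsta3 had 887, 149, 305, 216, 212 and 146 in ears 6, 8, 9, 10, 11 and 12 with dimercaprol before mustard, against 7.29 to 265 (median 94.6) in mustard ears. One pretreated ear, that of animal 6, stood far above the others, and the log2 fold change was 1.78 ± 0.43 (limma adjusted p = 0.0018). The second probe set of Gsta3 gave 0.38 ± 0.21 (limma adjusted p = 0.184), and the mean over both gave Gsta3 1.08, which was called. Gstm5 ranged over 1757 to 1939 in ears with dimercaprol before mustard, against 1301 to 1752 in mustard ears; these groups did not overlap, but its log2 fold change of 0.24 ± 0.11 missed the threshold (limma adjusted p = 0.0919), which it passed without mustard ear 36 (0.29, limma adjusted p = 0.0484). Gsto1 was 3269 to 5598 in the pretreated ears, against 4111 to 5478 in mustard ears, with a log2 fold change of -0.17 (95% interval -0.44 to 0.11) that turned to 0.74 without rescaling, which moves the median of all probe sets by a like amount. With array brightness as a covariate the 3 calls were lost: Gstm1 was 0.56 (limma adjusted p = 0.0768), Gstm2 0.35 (limma adjusted p = 0.308) and Gsta3 1.18 (limma adjusted p = 0.215).

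Set against methylene chloride ears, ears with dimercaprol before mustard differed in 1 member, Gsto1, where 3.05% of all probe sets were called and 1.82% were higher. Gsto1 had 3269, 3838, 4375, 4307, 4791 and 5598 in ears 6, 8, 9, 10, 11 and 12, against 1647 to 3008 in methylene chloride ears, with no overlap and a log2 fold change of 0.94 ± 0.10 (limma adjusted p = 2.74e-08). For the other 9 genes the log2 fold changes lay between -0.23 (Gstt1) and 0.09 (Gstk1). Gstm1 differed by -0.13 (95% interval -0.35 to 0.10), an interval that leaves out the size seen after mustard alone. The wound keratinocyte sum was 6281 to 35827 in these ears, and its part in the values was not tested.

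With octylhomovanillamide before mustard, Gsta3, Gstt1 and Gstm1 were higher than after mustard alone, 3 of 10 genes with 0 lower, where 17.1% of all probe sets were called and 10.5% were higher. Gstm1 had 1432, 1278, 1076, 1200 and 1679 in ears 27, 28, 29, 30 and 33 with octylhomovanillamide before mustard, against 768 to 1502 in mustard ears (log2 0.48 ± 0.15, limma adjusted p = 0.0254). Every pretreated ear was above 4 of the 5 mustard ears. The further probe sets of Gstm1 were higher on average too, with means of 235, 444 and 1142 against 192, 359 and 811 in mustard ears. Of the 15 member probe sets kept, however, 4 were called higher, among them the 3 representative ones. Gsta3 had 176, 207, 233, 169 and 242 in the pretreated ears in that order, against 7.29 to 265 in mustard ears (log2 1.47 ± 0.45, limma adjusted p = 0.0201). With 64 added the log2 fold change of Gsta3 was 0.92, and the mean over both its probe sets gave 0.88. The second probe set of Gsta3 averaged 115 ± 18.5 in the pretreated ears (SD, n = 5) and 97.0 ± 45.8 in mustard ears (SD, n = 5). Gstt1 ranged over 168 to 295 in the pretreated ears, against 70.3 to 218 in mustard ears (log2 0.69 ± 0.21, limma adjusted p = 0.0228).

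These 3 calls rest on few ears. None was kept without mustard ears 5 and 37, the pair with dim arrays and high Gapdh ratios (Gstm1 0.39, Gsta3 1.16 and Gstt1 0.70, limma adjusted p = 0.263, 0.225 and 0.140). Leaving out single ears kept between 1 and 4 calls: Gstm1 lost its call without mustard ear 1, 3, 5 or 37 or pretreated ear 27 or 33, Gstt1 without mustard ear 1 or pretreated ear 27, and Gsta3 without mustard ear 3 or 37. Against methylene chloride ears, where 2.76% of all probe sets were called and 1.82% were higher, Gsto1 was again the 1 member called. It had 3679, 4657, 4367, 4851 and 3184 in ears 27, 28, 29, 30 and 33, against 1647 to 3008 in methylene chloride ears, without overlap (log2 0.87 ± 0.11, limma adjusted p = 7.30e-07). Gstm1 was below the methylene chloride mean in 5 of 5 ears, and its log2 fold change of -0.41 ± 0.12 came close to the threshold (limma adjusted p = 0.0549); without pretreated ear 33 it passed it (-0.49, limma adjusted p = 0.0207).

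With indomethacin before mustard, most members were lower than in methylene chloride ears, Gsto1 was higher, and no member was called different from mustard alone. Against mustard ears 0 of 10 genes were called, with 1.80% of all probe sets called, and 2 members had an unadjusted p under 0.05. Gstm1 differed from mustard alone by -0.04 (95% interval -0.34 to 0.26) and Gsto1 by 0.21 (95% interval -0.06 to 0.49) on the log2 scale. The wound keratinocyte sum was 35995 to 75909 in these ears, against 2515 to 9205 in methylene chloride ears, and 3 of 6 basal keratinocyte markers (Krt5, Krt15, Col17a1) were lower; the part of either in the values was not tested. Against methylene chloride ears 7 members were lower and 1 was higher, where 35.9% of all probe sets were called, 19.6% lower and 16.3% higher. Gstm1 had 569, 1074, 1208, 988, 1005 and 789 in ears 16, 17, 18, 19, 21 and 22 with indomethacin before mustard, against 1474 to 2295 in methylene chloride ears. The groups did not overlap (log2 -0.93 ± 0.11, limma adjusted p = 1.78e-08).

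Gsto1 had 5989, 5932, 4627, 5929, 5335 and 5910 in the same 6 ears, against 1647 to 3008 in methylene chloride ears, the highest mean of all groups for this probe set (log2 1.32 ± 0.10, limma adjusted p = 3.45e-13). On the second probe set of Gsto1 the order differed, with means of 5195 for dimercaprol, 4566 for octylhomovanillamide and 4309 for indomethacin before mustard, and 4217 for mustard alone. The other lower members were Gsta3 (-1.13 ± 0.33), Gstm2 (-0.63 ± 0.11), Gsta4 (-0.52 ± 0.14), Gstt1 (-0.49 ± 0.16), Gstm5 (-0.47 ± 0.08) and Mgst1 (-0.33 ± 0.09). Mgst1 and Gsta4 were called here and not after mustard alone, but the direct comparison of the indomethacin-pretreated with the mustard ears called neither. When animals were fitted as fixed blocks over 4 complete pairs, 4 of the 8 calls were kept: Gstm1, Gstm2, Gstm5 and Gsto1 remained, while Gsta3 was -0.63 (limma adjusted p = 0.257), Gsta4 -0.34 (limma adjusted p = 0.182), Gstt1 -0.27 (limma adjusted p = 0.322) and Mgst1 -0.32 (limma adjusted p = 0.161).

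**Figure D4:**
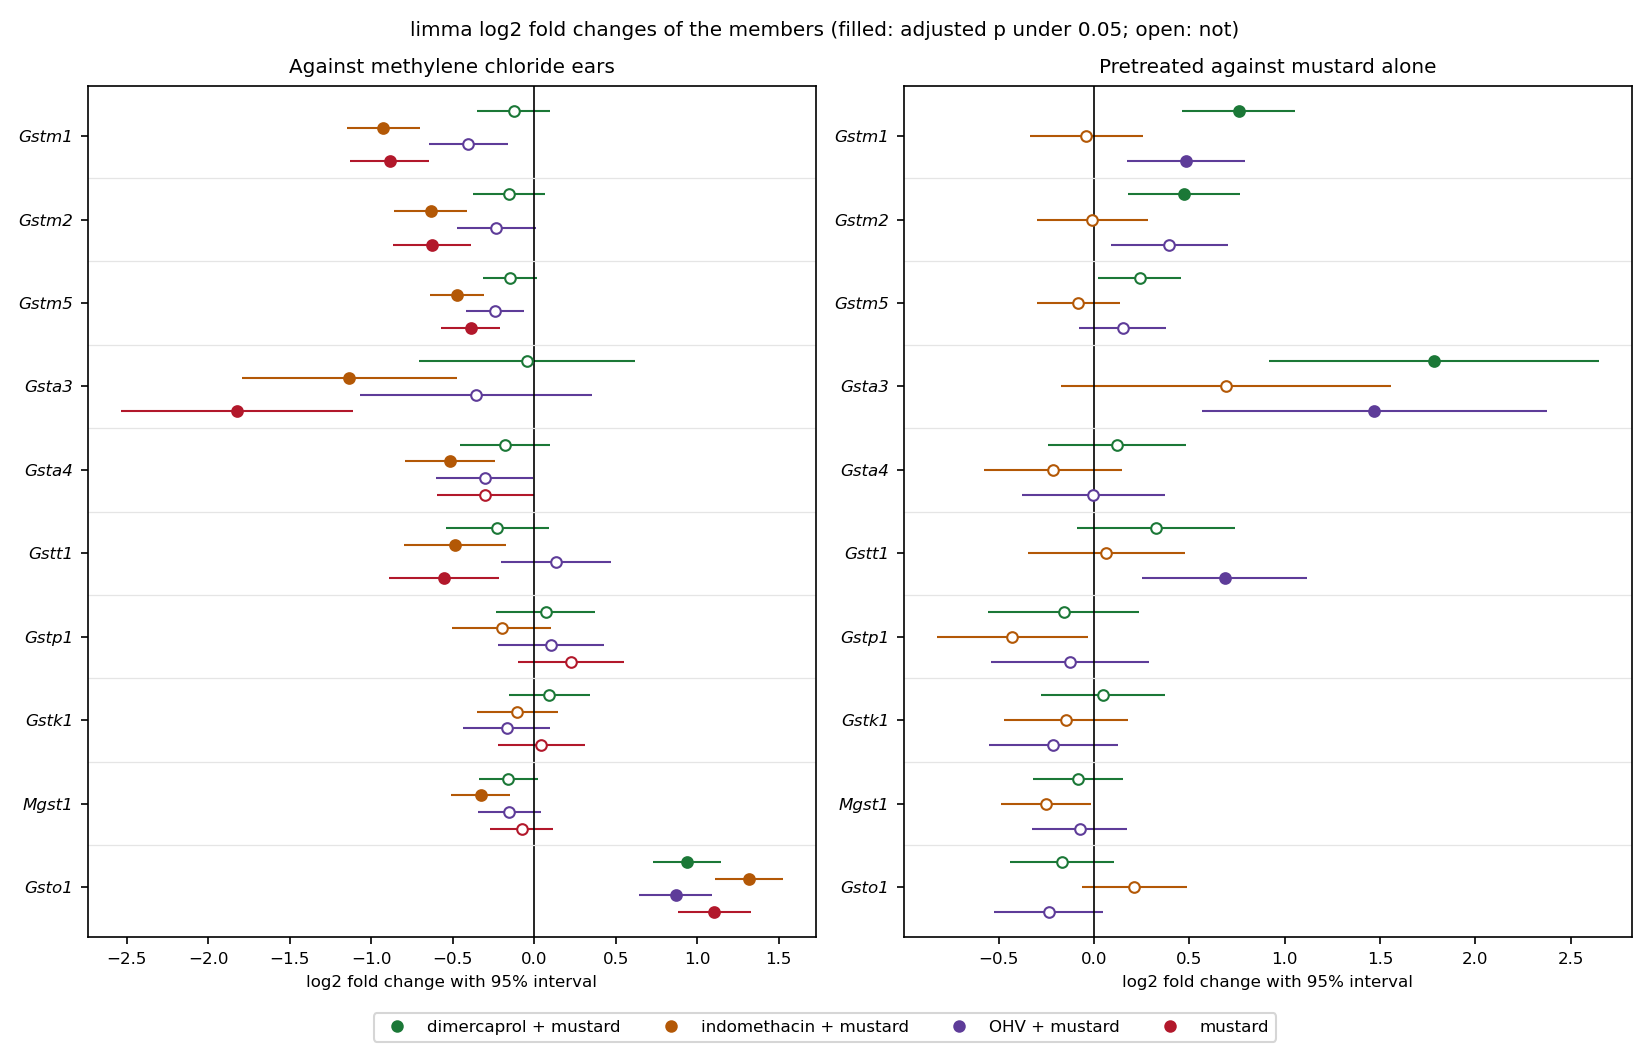
Log2 fold changes with 95% intervals (x axis) of the 10 genes (y axis) for the mustard groups against methylene chloride ears (left) and for pretreated against mustard ears (right), filled where the limma adjusted p was under 0.05. Gsto1 is filled in all 4 groups on the left and open in all 3 on the right, and the mu genes of the indomethacin group lie close to those of mustard alone.

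The pretreated groups were also set against each other, a step added after the other results were seen. With dimercaprol, Gstm1 was higher than with indomethacin by 0.80 ± 0.14 (limma adjusted p = 0.000464), without overlap of the ears (1272 to 1906, against 569 to 1208). Gstm2 (0.48 ± 0.14) and Gstm5 (0.32 ± 0.10) were higher too, 3 of 10 genes where 10.5% of all probe sets were called and 6.06% were higher. Gsto1 was lower with dimercaprol than with indomethacin by -0.38 ± 0.13, just short of the threshold (limma adjusted p = 0.0512) and past it with 64 added (limma adjusted p = 0.0496) or a minimum signal of 300 (limma adjusted p = 0.0403). The second probe set of Gsto1 had the other sign (0.32 ± 0.31, limma adjusted p = 0.576), and the mean over both, like the values without rescaling, gave -0.03. Octylhomovanillamide against indomethacin called 1 of 10 genes, Gstm1 (0.52 ± 0.15, limma adjusted p = 0.0489), where 2.07% of all probe sets were called and 1.17% were higher. Dimercaprol and octylhomovanillamide ears differed in 0 members and 0 of all probe sets, with 0 members and 332 probe sets at an unadjusted p under 0.05. The 3 drugs were given at different doses and volumes, so these are differences between the treatments as given.

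Without mustard no member was called for any drug or for ethanol. Against ethanol ears 0 members were called for dimercaprol, indomethacin and octylhomovanillamide, and 0 of all probe sets were by limma. At an unadjusted p under 0.05 there were 773, 1117 and 996 probe sets, among the members' representative ones 1, 0 and 1, in that order of drugs. Gstm1 had 1707, 1716, 1862 and 1917 in dimercaprol ears, against 2177, 1940 and 2019 in ethanol ears, lower by -0.18 (95% interval -0.44 to 0.08). Ethanol ears and naive animals differed in 0 members and 0 probe sets by limma, with 0 members and 501 probe sets at an unadjusted p under 0.05. Methylene chloride ears against naive animals called 0 members by their representative probe sets, although 21.5% of all probe sets were called. Of the remaining probe sets of Gstm1, 2 were lower in methylene chloride ears, by -0.54 ± 0.17 and -0.62 ± 0.16. The first averaged 275 in methylene chloride ears, 405 in naive animals and 376 to 442 in the drug and ethanol ears without mustard. The second averaged 506, 775 and 607 to 732 in that order. Methylene chloride and naive ears came from separately numbered animals, so the vehicle and the set of animals cannot be told apart.

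A test of the difference itself asked whether a drug's effect before mustard differed from its effect without mustard. The comparison groups differ, since the effect before mustard is drug and ethanol against no ethanol and that without mustard is drug and ethanol against ethanol. For dimercaprol the difference was called in 2 of 10 genes, with 8.61% of all probe sets called and 5.25% higher: Gstm1 by 0.94 ± 0.22 (limma adjusted p = 0.00532) and Gsta3 by 1.89 ± 0.61 (limma adjusted p = 0.0423). For Gstm1 the other 3 probe sets gave 0.40, 0.19 and 0.60 and none was called, and the mean over its probe sets gave Gstm1 0.53 (limma adjusted p = 0.0712). For Gsta3 the call was lost when mustard ear 3 or 37, dimercaprol ear 506 or 508, or any 1 of the 3 ethanol ears was left out. The second probe set of Gsta3 was not called, and the mean over both gave Gsta3 1.28. For indomethacin (0.0376% of probe sets) and octylhomovanillamide (1.85%) 0 members were called, with 0 and 3 at an unadjusted p under 0.05. Without mustard ear 36, however, octylhomovanillamide also called Gstm1 (0.82) and Gsta3 (1.77).

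Other genes of the same pathway were counted by lists. Of 10 measured further transferases, 4 were lower and 1 was higher in mustard than in methylene chloride ears, a count near the 42.8% of all probe sets called. Gstt3, a second theta enzyme, averaged 188 ± 75.7 in mustard ears (SD, n = 5) and 338 ± 55.1 in methylene chloride ears (SD, n = 21), a log2 fold change of -0.84 ± 0.14. Mgst3, a microsomal enzyme, fell by 0.78 and Gsta2, of the alpha class, fell by 0.78, while Mgst2 rose by 0.34. Dimercaprol before mustard gave higher Gstt3, Gsta2 and Mgst3 than mustard alone, where 15.6% of all probe sets were higher, and 0 calls against methylene chloride ears, and octylhomovanillamide gave higher Gstt3 and Gsta2 than mustard alone, where 10.5% of all were higher. Indomethacin before mustard gave 0 calls in this list against mustard ears, and 5 lower and 1 higher against methylene chloride ears, where 35.9% of all probe sets were called.

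Of the lists of genes that make and use glutathione, each had a share of calls after mustard near the 42.8% of all array A probe sets. Of 9 measured genes of synthesis and turnover, glutathione synthetase Gss (0.73) and Slc3a2 (0.54), a subunit of the cystine transporter, rose, and glutathione reductase Gsr (-0.56) and Ggct (-0.37) fell. On array B, where 26% of probe sets were called, Gclm, the modifier subunit of the rate-limiting enzyme, fell by 0.64. Of 8 peroxidases and glutaredoxins 3 rose and 0 fell, led by Gpx1 (0.71). Of 8 genes of conjugate export and mercapturate formation 0 rose and 3 fell, led by the conjugate exporter Abcc1 (-0.71). With dimercaprol before mustard, Gsr (0.83) and Abcc1 (0.48) were higher than after mustard alone and Gss (-0.48) and Gpx1 (-0.41) were lower. Octylhomovanillamide before mustard gave 0.62 for Gsr, -0.44 for Gss and -0.47 for Gpx1, each called. These comparisons and that of mustard with methylene chloride share the mustard ears.

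Of 19 measured Nrf2 regulators and targets, 10 rose and 2 fell in mustard ears and 7 were not called, with a list median of 0.24, where 19.3% of all probe sets rose and 23.4% fell. Ephx1, microsomal epoxide hydrolase, averaged 2180 ± 247 in mustard ears (SD, n = 5) and 735 ± 74.9 in methylene chloride ears (SD, n = 21), a log2 fold change of 1.55 ± 0.10. Nqo1, a quinone reductase, averaged 691 ± 171 in mustard ears (SD, n = 5) and 322 ± 55.3 in methylene chloride ears (SD, n = 21). Srxn1 rose by 1.02 and Cul3, a part of the ligase that degrades Nrf2, fell by 0.63. Set against mustard alone, 6 genes of the list were lower and 2 higher with dimercaprol, and 5 lower and 1 higher with octylhomovanillamide. Of all 15953 probe sets, 1792 were lower and 2488 higher with dimercaprol, and 1055 lower and 1668 higher with octylhomovanillamide. Cul3 was among the higher genes of the list with both drugs (0.49 and 0.47). Against methylene chloride ears 3 genes of this list were higher after dimercaprol and mustard and 3 after octylhomovanillamide and mustard. These were Ephx1, Nqo1 and Nfe2l2 in both cases, and 1.82% of all probe sets were higher in each. After indomethacin and mustard 11 genes of the list were higher and 4 lower, where 16.3% of all probe sets were higher and 19.6% lower. Gsto1 and these 2 genes, Ephx1 and Nqo1, were thus called higher in all 4 mustard groups. The groups share their methylene chloride ears.

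Among the 21 methylene chloride ears the members differed widely in spread. The coefficient of variation was 11.3% for Gstm1, 11.9% for Gstm5 and 12.9% for Gstm2, and it rose to 23.7% for Gstp1, 24.6% for Gstt1 and 43.4% for Gsta3. Part of the spread of Gsta3 came from 1 ear, the left ear of mustard animal 1 at 736. Without it the coefficient of variation was 25.4%. The highest ear then had 2.34 times the signal of the lowest, against 4.64 times with it. Leaving out the highest ear of Gstt1 likewise gave 23.6%. With the highest ear of each gene left out, Gsta3 still had the largest coefficient of variation of the 10 genes. Across these ears Pearson's r between members was at most 0.66 (Gstm1 with Gstp1, n = 21), as a description over ears that share the arrays and the scaling. Over all 64 array A ears, the genes whose signal was most like Gsto1 were Aen (r = 0.90), Ms4a10 (0.89) and Teddm3 (0.89). For Gstm1 they were Kazald1, Pard3 and Scin (0.88 each), for Gsta3 Erg28 (0.85), Hsd17b4 (0.84) and Ermp1 (0.83), and for Gstm2 the first was Gstm1 itself (0.85). Each r over the 64 ears pools all treatment groups, so it includes the differences between groups.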

How the data were processed

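Total RNA (10 µg) from 8 mm ear biopsies was hybridised to 2 Affymetrix mouse arrays; per the submitters' processing notes, the authors computed signals with MAS5, whose version and scaling are not given in the sources used here. The values deposited are linear probe set intensity. Array A was used for 64 ears and array B for 43. Precision is limited by how many ears each group has.

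Signals were multiplied per array so that the 2% trimmed mean of non-control probe sets was 500, and log2(scaled signal + 16) was tested. A filter required a mean of 100 scaled units over all ears and left 15953 probe sets on array A. Gene names came from GEO's platform annotation, updated through RefSeq: on array A 20393 probe sets had 1 symbol, 691 several and 1606 none. Models were fitted per array with limma 3.58.1 (lmFit, eBayes with trend) in R 4.3.3, after tests on simulated data, with 2-sided p-values and Benjamini-Hochberg adjustment. Mustard animals shared 1 fit, animals without mustard another (naive ears averaged per animal), and differences of differences used a joint fit. The labels number the animals but do not say how they were housed or processed, so p-values measure the spread between these ears. Left and right ears of a number are ears of 1 animal: residuals of the 17 pairs correlated by 0.164 on average (-0.0943 to 0.439, 9 pairs over 0.1), and the animal block was an alternative. Figures used matplotlib.

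All 10 members are named; of other genes, up to 4 per list with the smallest adjusted p may be named. Members, lists and tests were chosen with earlier results of these data known. Alternatives covered rescaling, pseudocount, filter, probe set choice, covariates, blocks and leaving out ears. No member probe set is on array B, so its alternatives were not run for the members.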

Additional observations from a re-analysis of the deposited data

Results flagged for a closer look

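In 3 of 70 sets of 4 to 10 ears, 1 ear lay far from the rest of its group for a member; chance gives about 1 in 20. Gstm1 was 1502 in mustard ear 36, while the other mustard ears were 768 to 879. The left ear of animal 36 had 1645, below the methylene chloride median of 1704. Gstm5 was 2037 in ear 18 with indomethacin before mustard, against 1199 to 1456 in the other ears of that group. The left ear of animal 18 was also high, at 2409 against 1728 to 2558 over the methylene chloride ears. Gstp1 was 1943 in ear 19 with indomethacin before mustard, the other ears having 3359 to 4379. The left ear of animal 19 was low too, at 2057 the lowest of the methylene chloride ears. Between both ears of animal 19 the Gstp1 difference was -0.08 on the log2 scale.

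The difference between dimercaprol before mustard and mustard alone departed from that between dimercaprol and ethanol for Gstm1, by 0.94, and for Gsta3, by 1.89 on the log2 scale, by a test of the difference itself. The mustard-alone ears had no ethanol, so that this is not a difference of the drug alone. None of the other 3 probe sets of Gstm1 was called, nor was the second probe set of Gsta3. The call of Gsta3 was lost on leaving out any of 7 single ears.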

How the results depend on the processing

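Counts of members called changed most without rescaling, where dimmer mustard arrays shift all probe sets (median log2 fold change of all probe sets -0.52 for mustard against methylene chloride and 0.76 for dimercaprol before mustard against mustard). That setting called 10 members for dimercaprol before mustard, 7 for octylhomovanillamide before mustard and 1 for indomethacin before mustard, each against mustard ears, and turned the sign of many uncalled values, with 6 called after the turn: Gstk1 to -0.54 for mustard against methylene chloride, Gstp1 to 0.74, Gsto1 to 0.74 and Mgst1 to 0.83 for dimercaprol before mustard against mustard, and Gsta4 to 0.59 and Mgst1 to 0.66 for octylhomovanillamide before mustard against mustard. The cause of the changes below was not tested.

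Mustard against methylene chloride called 6 members, between 4 and 9 over the alternatives, with 6 under either replicate block, fixed or random, and 5 to 7 when single ears were left out. Gstm1, Gstm2, Gstm5, Gsta3 and Gsto1 kept their direction and call in every alternative run; Gsta3 was not tested with the minimum of 300. The replicate block with the animal fixed cut the calls of indomethacin before mustard against methylene chloride to 4 of 8. Against mustard ears, array brightness as a covariate left 0 calls for dimercaprol and 0 for octylhomovanillamide. Octylhomovanillamide also had 0 with the Gapdh ratio, 0 without mustard ears 5 and 37, and 1 with a minimum signal of 300, at which 8 members are tested, and 1 to 4 when single ears were left out. The random block added Gstm2 (0.41, limma adjusted p = 0.0489) in that comparison; apart from the calls named here and beside the results, the blocks changed no call. Octylhomovanillamide before mustard against methylene chloride called 2 with the minimum of 300, the Gapdh ratio or brightness, and 1 to 2 without single ears. Methylene chloride against naive called 1 with quantile normalization (Gsto1) and 1 with the mean over probe sets (Gstm1). The dimercaprol difference with and without mustard called 1 of 2 with 64 added, no filter, the minimum of 300, the mean over probe sets, the Gapdh ratio or brightness, and 1 to 2 without single ears. For octylhomovanillamide that count was 0 to 2. Dimercaprol against indomethacin, both before mustard, called 1 of 3 with brightness. Octylhomovanillamide against indomethacin, both before mustard, called 0 of 1 without rescaling, with quantile normalization, no filter, no trend, the mean over probe sets, the Gapdh ratio or brightness, and 0 to 1 without single ears. Groups of 6 and 21 ears were not left out one by one. Mgst1's second probe set, dim at a mean of 43.7, was measured only without the filter.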
